A study of Homo sapiens with 12 samples.

Results

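The levels of 9 genes of MHC class I antigen presentation were followed through HT-29 cells, a human colorectal cancer line, and LAD2 cells, a human mast cell line. The genes are the heavy chain genes HLA-B, HLA-C and HLA-E, the light chain gene B2M, the transport and loading genes TAP1, TAP2 and TAPBP, the peptide-trimming gene ERAP1, and NLRC5, which encodes a transcriptional activator of class I genes. They were taken by symbol, through the Ensembl identifier of each row, and all 9 were found among the 58721 genes of the deposited count table. The study measured total RNA by RNA sequencing and asked how direct contact between mast cells and colorectal cancer cells changes either line, in particular the epithelial-to-mesenchymal state of the cancer cells. The groups were HT-29 in direct coculture with LAD2 (3 libraries), HT-29 alone (3 libraries), LAD2 in direct coculture with HT-29 and LAD2 alone (3 libraries), all at 12 hours and without any other treatment or genetic change named in the labels. HT-29 RNA came from a mini column kit and LAD2 RNA from a micro column kit, so line and kit cannot be told apart where the lines are compared with each other. The sources used here do not say how the lines were separated after coculture.

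The 3 columns of LAD2 coculture were identical in every gene and count here as 1 library. The data thus hold 10 distinct libraries, and LAD2 coculture has a single value for each gene. The labels do not say whether libraries of 1 group were grown as separate cultures. The spread behind each p-value is that between these libraries and may be technical. Total counts ranged from 17229788 to 34142465 per library, and levels are given in CPM, the usual scaling of a gene's count to the total of its library. The limit that 0 counts leave, 3 counts, stood at 0.0879 to 0.174 CPM across libraries, for counting error only. The labelled lines were checked against 12 mast cell and 12 epithelial markers. In HT-29 alone, 10 of the 12 mast cell markers, among them KIT, CPA3 and FCER1A, had 0 counts, and the list summed to 33.1 to 33.6 CPM, while all 12 had counts in HT-29 coculture, where the list summed to 250.9 to 272.8 CPM. The epithelial markers summed to 13074 to 13312 CPM in HT-29 coculture and to 12805 to 13416 CPM in HT-29 alone. In LAD2 the mast cell markers summed to 19102 CPM in coculture and to 19594 to 19812 CPM alone, whereas the epithelial markers summed to 1084 CPM in coculture and to 226.4 to 249.9 CPM alone, with CDH1, CDX1, CDX2 and VIL1 at 0 alone. GATA2, at a mean of 33.4 CPM, made up nearly all of the mast cell sum in HT-29 alone. KRT19 made up nearly all of the epithelial sum in LAD2 alone, at a mean of 235 CPM, and had 240 CPM in LAD2 coculture. CDX1 and CDX2 were low in HT-29 alone too, at means of 0.245 and 2.28 CPM. In coculture all 12 mast cell markers in HT-29, and 11 of 12 epithelial markers in LAD2, lay above every library of the line alone. RNA of the other line was thus measured in the coculture libraries. Its share was read from genes with 50 CPM or more in 1 line alone and 0.5 CPM or less in the other. LAD2 RNA made up 1.04%, 1.09% and 1.19% of the HT-29 coculture libraries (309 genes; mean over libraries 1.11% ± 0.0737, SD, n = 3), and HT-29 RNA made up 5.26% of the LAD2 coculture library (327 genes).

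MHC class I molecules carry short peptides from proteins made inside the cell to the cell surface, where CD8 T cells and natural killer cells read them. Peptides cut by the proteasome are pumped into the endoplasmic reticulum by the TAP1 and TAP2 transporter, trimmed there by ERAP1, and loaded with the help of tapasin, the product of TAPBP, onto a heavy chain that is paired with beta-2-microglobulin, the product of B2M. HLA-B and HLA-C are classical heavy chains that present many peptides, and HLA-E mainly presents signal peptides of other class I chains to receptors of natural killer cells. Class I genes are transcribed in nearly all nucleated cells and rise under interferon and NF-kappaB signalling, in part through NLRC5, and colorectal tumours are known for loss of parts of this pathway.

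The promoters of the genes that the results turn on are shown because the class I genes share regulatory letters there. They are the 300-base windows of RefSeq on GRCh38.p14, from 250 bases before the start to 50 bases after it, printed along the strand of the gene. The table held windows for 7 of the 9 genes, and HLA-E and NLRC5 are named only. Capitals mark each match, on either strand, to 4 short motifs searched for: the interferon-stimulated response element (GAAA and, after any 2 bases, GAAA again), the gamma-activated site TTCNNNGAA, the kappaB motif GGGNNTTCC and the inverted CCAAT box ATTGG. The windows are those of HLA-B (chr6:31357130-31357429, minus strand), HLA-C (chr6:31272043-31272342, minus strand), B2M (chr15:44711267-44711566, plus strand), TAP1 (chr6:32853655-32853954, minus strand), TAP2 (chr6:32838690-32838989, minus strand) and TAPBP (chr6:33314029-33314328, minus strand).
HLA-B: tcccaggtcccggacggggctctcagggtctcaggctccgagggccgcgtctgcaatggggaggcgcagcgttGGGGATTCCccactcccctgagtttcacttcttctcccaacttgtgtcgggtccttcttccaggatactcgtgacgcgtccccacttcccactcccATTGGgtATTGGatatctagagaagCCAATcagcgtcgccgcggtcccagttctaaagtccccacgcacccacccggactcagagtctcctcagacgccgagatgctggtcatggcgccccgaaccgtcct
HLA-C: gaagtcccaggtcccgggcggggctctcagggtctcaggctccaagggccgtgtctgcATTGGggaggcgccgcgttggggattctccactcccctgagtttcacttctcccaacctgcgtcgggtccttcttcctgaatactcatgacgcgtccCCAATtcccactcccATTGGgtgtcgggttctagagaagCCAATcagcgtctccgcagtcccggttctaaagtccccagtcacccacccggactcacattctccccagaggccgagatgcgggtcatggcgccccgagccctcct
B2M: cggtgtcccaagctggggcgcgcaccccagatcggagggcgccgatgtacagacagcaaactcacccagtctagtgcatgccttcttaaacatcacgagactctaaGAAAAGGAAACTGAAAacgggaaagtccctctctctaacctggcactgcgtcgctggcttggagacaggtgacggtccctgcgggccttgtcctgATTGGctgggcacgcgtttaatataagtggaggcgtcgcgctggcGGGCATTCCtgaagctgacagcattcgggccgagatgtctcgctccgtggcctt
TAP1: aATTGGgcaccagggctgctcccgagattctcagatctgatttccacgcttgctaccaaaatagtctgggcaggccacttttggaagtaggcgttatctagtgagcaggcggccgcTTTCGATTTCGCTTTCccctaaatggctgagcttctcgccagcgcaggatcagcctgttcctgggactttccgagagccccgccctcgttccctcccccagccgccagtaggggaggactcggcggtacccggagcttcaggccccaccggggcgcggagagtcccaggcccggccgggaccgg
TAP2: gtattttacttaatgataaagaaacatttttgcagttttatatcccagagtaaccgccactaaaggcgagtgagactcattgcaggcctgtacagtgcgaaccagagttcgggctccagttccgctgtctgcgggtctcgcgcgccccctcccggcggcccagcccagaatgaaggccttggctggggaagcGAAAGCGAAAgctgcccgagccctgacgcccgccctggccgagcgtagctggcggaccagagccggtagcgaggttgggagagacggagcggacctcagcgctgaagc
TAPBP: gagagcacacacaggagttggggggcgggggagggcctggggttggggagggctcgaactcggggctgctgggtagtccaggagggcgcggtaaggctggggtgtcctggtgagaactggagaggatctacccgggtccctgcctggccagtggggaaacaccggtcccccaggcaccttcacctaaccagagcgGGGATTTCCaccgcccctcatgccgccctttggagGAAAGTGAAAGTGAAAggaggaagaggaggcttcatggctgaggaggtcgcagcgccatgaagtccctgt
The interferon-stimulated response element matched in 5 of the 7 genes with a window (5 of 9 windows), B2M, ERAP1, TAP1, TAP2 and TAPBP, against 3.57% of 35116 promoter windows of the same length. In TAP2 it starts at position -58, counted with the start of the gene as 1. In TAP1, TAPBP and B2M a pair of matches overlaps, with starts at -134 and -128, at -20 and -14, and at -144 and -138. The kappaB motif matched in B2M, ERAP1, HLA-B (at -177) and TAPBP, against 6.58% of all windows, and the inverted CCAAT box in B2M, ERAP1, HLA-B, HLA-C and TAP1, against 34.6%. The gamma-activated site matched only in a further TAP1 window (at -189), against 7.66%. A match describes letters in the window and not a bound site.

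In the lines alone, every one of the 9 genes was lower in HT-29 than in LAD2, by 1.83-fold for TAP2 to 149-fold for HLA-B as a ratio of mean CPM. All 9 passed the test (edgeR quasi-likelihood test, two-sided, with Benjamini-Hochberg adjustment over all genes, called at an adjusted p under 0.05), beside 47.5% of the 15830 genes tested that were lower in HT-29 and 44.9% that were higher (92.4% in either direction). The libraries of the lines did not overlap in any of the 9 genes, beside 47.7% of all genes with every HT-29 library lower and 44.6% with every one higher. The median log2 difference, HT-29 alone minus LAD2 alone, was -3.27 over the 9 genes and -0.07 over all genes tested. Each call was also made in all 12 other settings tried.

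HLA-B (GRCh38 chromosome 6, 31269491 to 31357188, minus strand) had 12.7, 12.7 and 12.9 CPM in HT-29 alone, against 1871, 1874 and 1979.8 CPM in LAD2 alone. HLA-C (chromosome 6, 31268749 to 31272130, minus strand) had 101, 105 and 102 CPM in HT-29 alone, against 982, 967 and 1046 CPM in LAD2 alone. HLA-E (chromosome 6, 30489467 to 30494205, plus strand) had 83.5, 88.0 and 87.1 CPM in HT-29 alone, against 1079.8, 1063 and 1119.6 CPM in LAD2 alone. The libraries of the lines stand far apart in all 3 heavy chain genes, and farthest in HLA-B. The log2 differences, HT-29 alone minus LAD2 alone, were -7.21 for HLA-B (SE 0.059, adjusted p = 9.91e-51), -3.27 for HLA-C (SE 0.044, adjusted p = 3.2e-43) and -3.64 for HLA-E (SE 0.044, adjusted p = 6.09e-45) by the edgeR quasi-likelihood test. Heavy chain genes resemble each other and differ between people, so that reads may be shared between them or lost against the reference, and the gene models of HLA-B and HLA-C overlap in 35 exon bases on the same strand. Exons of HLA-B also overlap an unnamed gene on the other strand over 542 bases. The sources used here do not say how shared reads were counted, and the levels of the heavy chains are uncertain to that extent.

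B2M (chromosome 15, 44711487 to 44718877, plus strand) had 398, 401 and 394 CPM in HT-29 alone, against 1755, 1847 and 1927 CPM in LAD2 alone. Its log2 difference was -2.20 (SE 0.043, adjusted p = 4.13e-37, edgeR), smaller than that of any of the 3 heavy chains. Levels of different genes were compared per kilobase of the principal transcript (CPM per kb). On that scale the 3 heavy chains summed to 0.463 ± 0.00825 times B2M in HT-29 alone and to 2.13 ± 0.0631 times B2M in LAD2 alone (SD, n = 3 each). This ratio depends on the length used. With the length of all exons of a gene joined, a setting chosen after the data were seen, it was 1.13 ± 0.0216 in HT-29 alone and 4.59 ± 0.140 in LAD2 alone, so that whether the heavy chains lay above or below B2M in HT-29 was not settled, while the ratio was lower in HT-29 alone than in LAD2 alone on either length. HLA-B supplied 7.66% ± 0.178 of the heavy chain sum in HT-29 alone and 53.6% ± 0.223 in LAD2 alone. In HT-29 alone HLA-C was the highest of the 3, at 66.6 CPM per kb, followed by HLA-E at 33.1 and HLA-B at 8.27 CPM per kb, whereas in LAD2 alone HLA-B stood at 1233 CPM per kb, HLA-C at 650.0 and HLA-E at 418 CPM per kb.

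TAP1 and TAP2 encode the paired subunits of 1 transporter and lie near each other on chromosome 6 (32845209 to 32853978 and 32821833 to 32838780, both minus strand). TAP1 had 7.00, 8.17 and 8.18 CPM in HT-29 alone, against 104, 107 and 109.8 CPM in LAD2 alone. TAP2 had 19.8, 17.6 and 18.5 CPM in HT-29 alone, against 36.2, 33.3 and 32.9 CPM in LAD2 alone. The libraries of the lines stood apart in both genes, by less in TAP2 than in TAP1, with log2 differences of -0.87 (SE 0.063, adjusted p = 1.25e-16) for TAP2 and -3.76 (SE 0.060, adjusted p = 1.55e-40) for TAP1 by the edgeR quasi-likelihood test. The ratio of TAP1 to TAP2 in CPM, without scaling to length, was 0.421 ± 0.0594 in HT-29 alone and 3.14 ± 0.240 in LAD2 alone (SD, n = 3 each). Per kilobase of joined exon length it was 0.559 ± 0.0790 in HT-29 alone and 4.18 ± 0.319 in LAD2 alone. Exons of TAP1 overlap PSMB8-AS1 on the other strand over 456 bases, and exons of TAP2 overlap an unnamed gene on the same strand over 2064 bases, so reads of these pairs may not be told apart.

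TAPBP (chromosome 6, 33299694 to 33314387, minus strand), whose product bridges the transporter and the empty heavy chain, had 120.5, 117 and 111 CPM in HT-29 alone, against 425, 416 and 419 CPM in LAD2 alone. ERAP1 (chromosome 5, 96760810 to 96808100, minus strand) had 22.7, 22.0 and 23.2 CPM in HT-29 alone, against 53.1, 54.5 and 49.4 CPM in LAD2 alone. NLRC5 (chromosome 16, 56989485 to 57083531, plus strand) had 0.511, 0.469 and 0.871 CPM in HT-29 alone, against 16.4, 19.5 and 17.1 CPM in LAD2 alone. The libraries of the lines did not overlap in these 3 genes, and NLRC5 rested on only 41 counts over the HT-29 alone libraries. Exons of ERAP1 overlap CAST over 299 bases and an unnamed gene over 252 bases, both on the other strand. Reads of these genes may not be told apart, since the use of strand is not given. The log2 differences were -1.84 for TAPBP (adjusted p = 9.18e-36), -1.20 for ERAP1 (adjusted p = 7.98e-24) and -4.91 for NLRC5 (adjusted p = 3.06e-29) by the edgeR quasi-likelihood test.

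**Figure D1:**
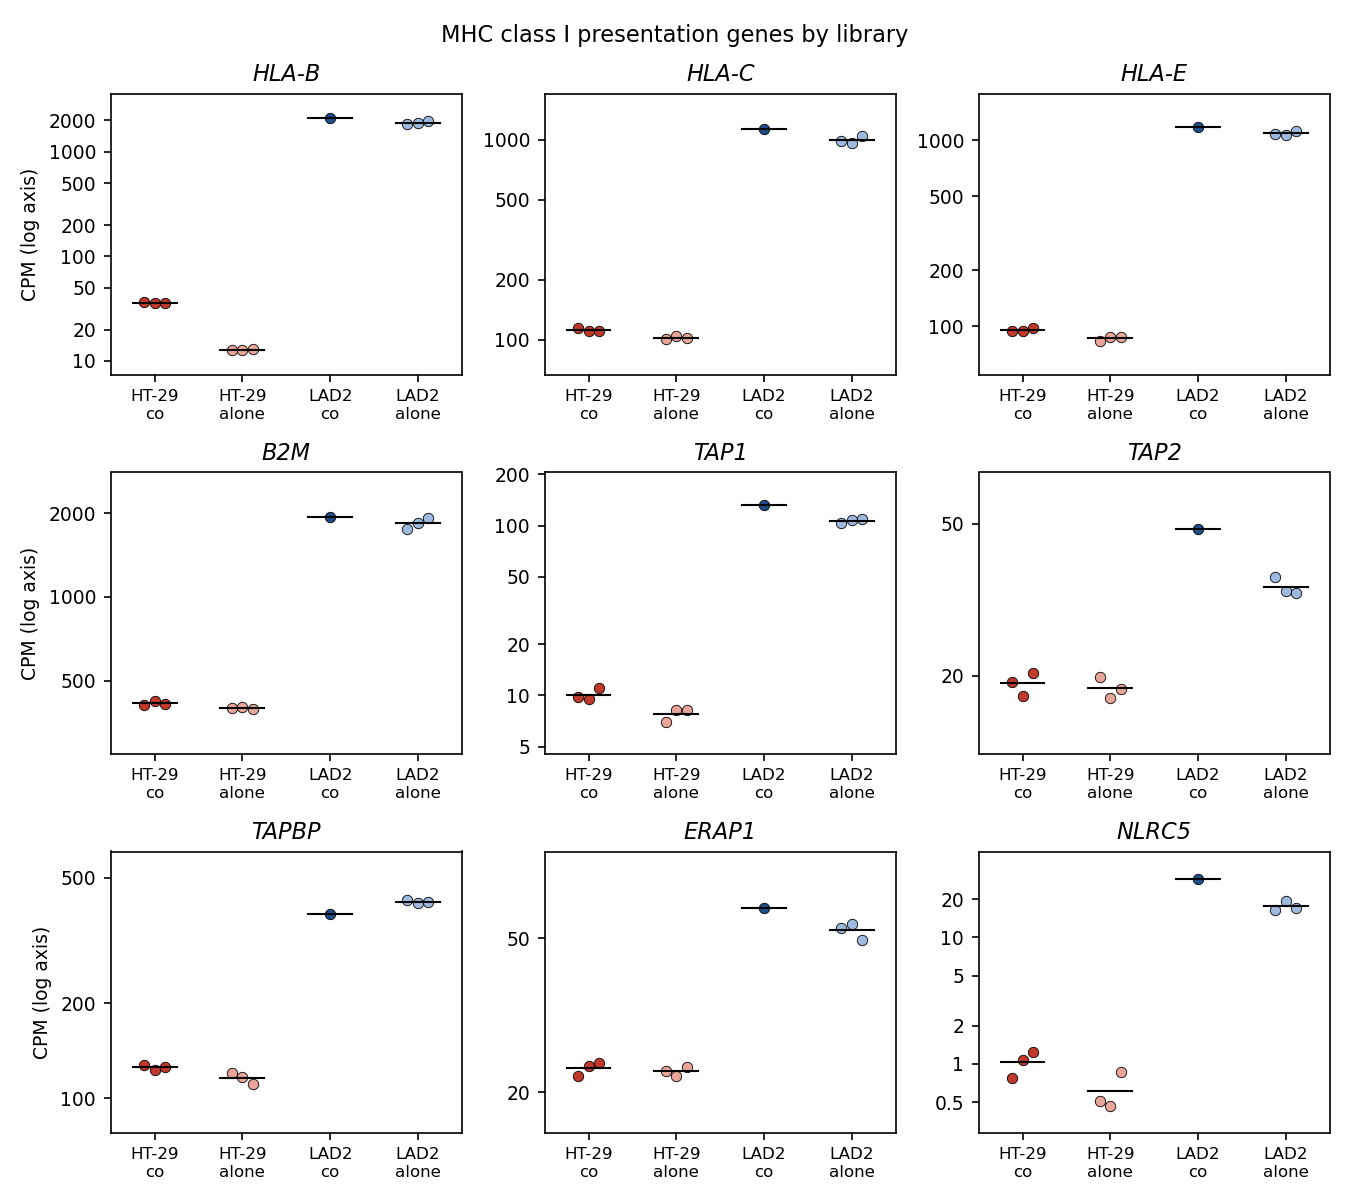
Level of each of the 9 genes in CPM on a log axis, with 1 point for each distinct library and a bar at the group mean; co stands for coculture. Within each gene all libraries of LAD2 lie above all libraries of HT-29, and the step between HT-29 coculture (mean 35.9 CPM) and HT-29 alone (mean 12.8 CPM) is widest for HLA-B.

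In HT-29 coculture 5 of the 9 genes were higher than in HT-29 alone and none was lower: HLA-B, HLA-C, HLA-E, TAP1 and TAPBP passed the test, while B2M, TAP2, ERAP1 and NLRC5 did not. Beside them, 5.83% of the 14070 genes tested were higher and 2.94% lower (8.76% in either direction). At an unadjusted p under 0.05, 7 of the 9 were higher and 0 lower, and DESeq2 called 3 higher, HLA-B, HLA-C and HLA-E, and 0 lower. The shares of all genes in each direction at an unadjusted p and by DESeq2 are not given here. These counts are therefore not set against the other genes. The median log2 fold change was 0.12 over the 9 genes and 0.00 over all genes tested. HLA-B changed most, 2.80-fold as a ratio of mean CPM, and the other called genes by 0.34 or less on the log2 scale. A mixture of HT-29 alone with 1.11% of LAD2 alone gives a higher level than HT-29 alone for each of the 9 genes, since all were higher in LAD2 alone. In bulk libraries like these, fewer cells of a type and less RNA per cell cannot be told apart.

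HLA-B had 36.4, 35.6 and 35.7 CPM in HT-29 coculture, against 12.7, 12.7 and 12.9 CPM in HT-29 alone. The groups were far apart, with coefficients of variation of 1.23% in HT-29 coculture and 1.00% in HT-29 alone (log2 fold change 1.48, SE 0.054, adjusted p = 1.37e-24, edgeR quasi-likelihood test). A mixture of HT-29 alone with 1.11% of LAD2 alone gives 33.8 CPM, and the mean of HT-29 coculture was 1.06 times that level (1.01 to 1.12 times over the libraries, each with its own share). With the LAD2 coculture library in place of LAD2 alone, a setting chosen after the data were seen, the mixture gives 36.0 CPM and the ratio was 0.997. After the share was subtracted from each coculture library, the log2 fold change of HLA-B was 0.24 (adjusted p = 0.0725, edgeR) with the LAD2 alone profile and 0.01 (adjusted p = 0.976) with the LAD2 coculture profile. In each of the other 13 settings HLA-B was called, with log2 fold changes of 1.46 to 1.49.

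HLA-C had 114, 111 and 111 CPM in HT-29 coculture, against 101, 105 and 102 CPM in HT-29 alone. HLA-E had 94.2, 94.7 and 98.1 CPM in HT-29 coculture, against 83.5, 88.0 and 87.1 CPM in HT-29 alone. In both genes every coculture library lay above every library alone, by small margins. The log2 fold changes were 0.12 for HLA-C (SE 0.028, adjusted p = 0.00288) and 0.13 for HLA-E (SE 0.030, adjusted p = 0.00188) by the edgeR quasi-likelihood test. The levels were 1.00 times the mixture for HLA-C and 0.984 times for HLA-E. The call of HLA-C was lost without HT-29 coculture replicate 1 (adjusted p = 0.0518), in the fit on all distinct libraries (adjusted p = 0.0745) and after subtraction of the LAD2 alone or LAD2 coculture profile, where its log2 fold change was -0.01 and -0.03 (adjusted p from 0.000699 to 0.929 over the 15 other settings). After the same subtractions HLA-E was at -0.04 and -0.06.

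B2M, the light chain, had 408, 422 and 412 CPM in HT-29 coculture, against 398, 401 and 394 CPM in HT-29 alone. The groups did not overlap, yet the log2 fold change of 0.04 (SE 0.020, adjusted p = 0.23, edgeR) did not pass, and the level was 1.00 times the mixture. The sum of the 3 heavy chains per kilobase of the principal transcript was 0.548 ± 0.0146 times B2M in HT-29 coculture and 0.463 ± 0.00825 times in HT-29 alone, and with the joined exon length it was 1.30 ± 0.0338 times in HT-29 coculture and 1.13 ± 0.0216 times in HT-29 alone (SD, n = 3 each). The part of HLA-B in the sum per kilobase of the principal transcript was 17.4% ± 0.114 in HT-29 coculture and 7.66% ± 0.178 in HT-29 alone. With the joined exon length it was 13.3% ± 0.123 in HT-29 coculture and 5.67% ± 0.135 in HT-29 alone. Neither ratio was corrected for the LAD2 share. HLA-B, HLA-C and HLA-E stood at 1.06, 1.00 and 0.984 times the mixture in HT-29 coculture, and a change of the ratios beyond the share was not tested.

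TAP1 had 9.74, 9.46 and 11.0 CPM in HT-29 coculture, against 7.00, 8.17 and 8.18 CPM in HT-29 alone. The groups did not overlap, and the log2 fold change of 0.34 (SE 0.089, adjusted p = 0.00928, edgeR quasi-likelihood test) passed. Its level was 1.13 times the mixture (1.07 to 1.23 times over the libraries), and after subtraction the log2 fold change was 0.18 (adjusted p = 0.373, with 0.00524 to 0.577 over all 15 other settings). The call was also lost without HT-29 alone replicate 1 or without HT-29 coculture replicate 3. TAP2 had 19.2, 17.8 and 20.4 CPM in HT-29 coculture, against 19.8, 17.6 and 18.5 CPM in HT-29 alone. These values overlapped and the log2 fold change was 0.03 (95% interval -0.09 to 0.16, adjusted p = 0.842). The ratio of TAP1 to TAP2 in CPM, without scaling to length, was 0.526 ± 0.0178 in HT-29 coculture and 0.421 ± 0.0594 in HT-29 alone (SD, n = 3 each). Per kilobase of joined exon length it was 0.700 ± 0.0237 in HT-29 coculture and 0.559 ± 0.0790 in HT-29 alone.

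TAPBP had 128, 123 and 126 CPM in HT-29 coculture, against 120.5, 117 and 111 CPM in HT-29 alone (log2 fold change 0.10, SE 0.028, adjusted p = 0.0195, edgeR). All coculture libraries lay above those alone, at 1.05 times the mixture (1.03 to 1.07 times), and 7 of 15 other settings did not call it, including those without HT-29 coculture replicate 1, without HT-29 alone replicate 2 and without HT-29 alone replicate 3. ERAP1 had 22.0, 23.4 and 23.8 CPM in HT-29 coculture, against 22.7, 22.0 and 23.2 CPM in HT-29 alone, values that overlapped (log2 fold change 0.02, adjusted p = 0.924). NLRC5 had 0.778, 1.07 and 1.25 CPM in HT-29 coculture, against 0.511, 0.469 and 0.871 CPM in HT-29 alone. Its libraries overlapped, and the 71 counts over HT-29 coculture and 41 counts over HT-29 alone left a wide interval for the log2 fold change of 0.76 (0.17 to 1.36, adjusted p = 0.111), which passed in 1 of 15 other settings, without HT-29 alone replicate 3 (adjusted p = 0.0472, highest 0.795).

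In 6 of the 9 genes the HT-29 coculture libraries lay above all HT-29 alone libraries, beside 15.6% of all genes tested, and in none did they lie below, beside 7.83%. The median level of the 9 genes was 1.02 times the mixture, and that of all genes tested 1.01 times. HLA-B, HLA-E, TAP1 and NLRC5 were each 10-fold or more higher in LAD2 alone than in HT-29 alone. After subtraction of the share none of the 9 genes was called by the edgeR quasi-likelihood test, with either LAD2 profile, beside 1.72% of all genes higher and 1.43% lower with the LAD2 alone profile, and 1.66% higher and 1.42% lower with the LAD2 coculture profile. At an unadjusted p under 0.05, HLA-B and TAPBP were higher after subtraction of the LAD2 alone profile and TAPBP alone after subtraction of the LAD2 coculture profile, and none was lower. No share of all genes at an unadjusted p stands beside these.

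**Figure D2:**
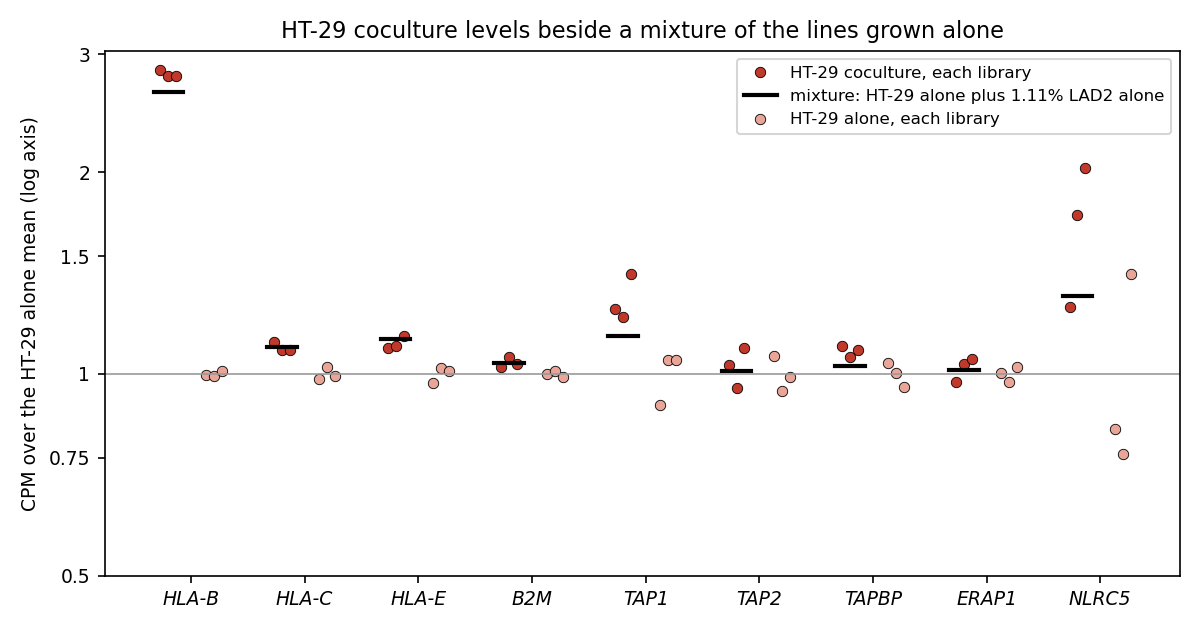
Level of each gene in HT-29 coculture libraries and in HT-29 alone libraries, divided by the mean of HT-29 alone, on a log axis; the black bar is the level that HT-29 alone with 1.11% LAD2 alone would give. HLA-B lies near 2.80 in coculture, just above its bar, while HLA-C, HLA-E and B2M lie around their bars. All 3 points of TAP1 and of TAPBP, and 2 of 3 of TAP2, ERAP1 and NLRC5, lie above theirs.

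In LAD2 coculture NLRC5, TAP2 and TAP1 were higher than in LAD2 alone, by 1.65-, 1.42- and 1.24-fold as ratios of mean CPM, and the heavy chains, B2M, TAPBP and ERAP1 did not pass the test. These 3 of 9 stand beside 14.1% of the 15821 genes tested that were higher, and none of the 9 was lower, beside 6.75% of genes. At an unadjusted p under 0.05, 6 were higher and 1, TAPBP, lower, and DESeq2 called 3 higher and 0 lower. The unadjusted and DESeq2 counts have no share of all genes in each direction beside them and are not set against the other genes. The median log2 fold change was 0.17 over the 9 genes and 0.00 over all genes tested. A mixture of LAD2 alone with 5.26% of HT-29 alone gives a lower level than LAD2 alone for each of the 9 genes, since all were lower in HT-29 alone. The spread of the single coculture library was taken to be that of the LAD2 alone libraries.

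NLRC5, the activator of class I transcription, had 29.2 CPM in the LAD2 coculture library, against 16.4, 19.5 and 17.1 CPM in LAD2 alone. The coculture library was well above all 3 alone (log2 fold change 0.71, SE 0.098, adjusted p = 1.38e-07, edgeR quasi-likelihood test), at 1.74 times the mixture. TAP2 had 48.5 CPM in LAD2 coculture, against 36.2, 33.3 and 32.9 CPM in LAD2 alone (log2 fold change 0.50, SE 0.080, adjusted p = 3.75e-06), at 1.46 times the mixture. TAP1 had 133 CPM in LAD2 coculture, against 104, 107 and 109.8 CPM in LAD2 alone (log2 fold change 0.30, SE 0.066, adjusted p = 0.000433), at 1.31 times the mixture. For both transporter genes the coculture library exceeded every library alone. The ratio of TAP1 to TAP2 in CPM, without scaling to length, was 2.74 in LAD2 coculture and 3.14 ± 0.240 in LAD2 alone. Per kilobase of joined exon length it was 3.64 in LAD2 coculture and 4.18 ± 0.319 in LAD2 alone. Over the 10 other settings tried the log2 fold changes ran from 0.67 to 0.89 for NLRC5, 0.47 to 0.67 for TAP2 and 0.28 to 0.47 for TAP1. Each of these settings used the same single LAD2 coculture library. They cannot show whether another coculture library would give the same levels.

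HLA-B had 2106 CPM in LAD2 coculture, against 1871, 1874 and 1979.8 CPM in LAD2 alone. HLA-C had 1132 CPM in LAD2 coculture, against 982, 967 and 1046 CPM in LAD2 alone, and HLA-E had 1172 CPM in LAD2 coculture, against 1079.8, 1063 and 1119.6 CPM in LAD2 alone. B2M had 1937.5 CPM in LAD2 coculture, against 1755, 1847 and 1927 CPM in LAD2 alone. The coculture library exceeded every library alone in these 4 genes, but the log2 fold changes were small, at 0.13 for HLA-B (adjusted p = 0.158), 0.17 for HLA-C (adjusted p = 0.053), 0.10 for HLA-E (adjusted p = 0.324) and 0.06 for B2M (adjusted p = 0.59) by the edgeR quasi-likelihood test. The sum of the heavy chains per kilobase of the principal transcript was 2.24 times B2M in LAD2 coculture and 2.13 ± 0.0631 times in LAD2 alone, and 4.82 and 4.59 ± 0.140 times with the joined exon length. HLA-B made up 53.4% of the sum per kilobase of the principal transcript in LAD2 coculture and 53.6% ± 0.223 in LAD2 alone. With the joined exon length it made up 44.95% in LAD2 coculture and 45.02% ± 0.215 in LAD2 alone.

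TAPBP had 385 CPM in LAD2 coculture, against 425, 416 and 419 CPM in LAD2 alone, below all 3 (log2 fold change -0.14, SE 0.063, adjusted p = 0.133, edgeR), at 0.953 times the mixture. ERAP1 had 59.7 CPM in LAD2 coculture, against 53.1, 54.5 and 49.4 CPM in LAD2 alone, above all 3 (log2 fold change 0.18, SE 0.075, adjusted p = 0.0847). The coculture library lay above all alone libraries in 8 of the 9 genes, beside 37.8% of genes tested, and below them in 1, TAPBP, beside 30.6%. The median level was 1.18 times the mixture over the 9 genes and 0.996 times over all genes tested. After the HT-29 share was subtracted, 6 of the 9 genes were called higher, beside 5.92% of all genes then tested, and none lower, beside 4.47%. They had log2 fold changes of 0.80 for NLRC5 (adjusted p = 6.03e-08), 0.56 for TAP2 (adjusted p = 2.03e-06), 0.39 for TAP1 (adjusted p = 3.46e-05), 0.25 for HLA-C (adjusted p = 0.00579), 0.24 for ERAP1 (adjusted p = 0.0309) and 0.22 for HLA-B (adjusted p = 0.0178). Over the 10 other settings the adjusted p ran from 9.26e-09 to 0.329 for HLA-C, from 2.76e-06 to 0.347 for ERAP1 and from 1.09e-07 to 0.566 for HLA-B. Without LAD2 alone replicate 3, 7 of the 9 genes were called higher and TAPBP was called lower, beside 17.7% and 10.7% of all genes tested in that setting. Ordered by mean level, 8 of the 9 genes ran LAD2 coculture, LAD2 alone, HT-29 coculture and HT-29 alone from highest to lowest, and TAPBP had LAD2 alone first. Neighbours in this order overlapped only between HT-29 coculture and HT-29 alone, in TAP2, ERAP1 and NLRC5. Together the 9 genes took 0.0836% ± 0.000347 of the counts in HT-29 coculture and 0.0765% ± 0.000708 in HT-29 alone (SD, n = 3 each), and 0.700% in LAD2 coculture and 0.647% ± 0.0204 in LAD2 alone. The order and these totals were taken without subtraction of the other line's RNA. In HT-29 coculture the median level of the 9 genes was 1.02 times the mixture.

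**Figure D3:**
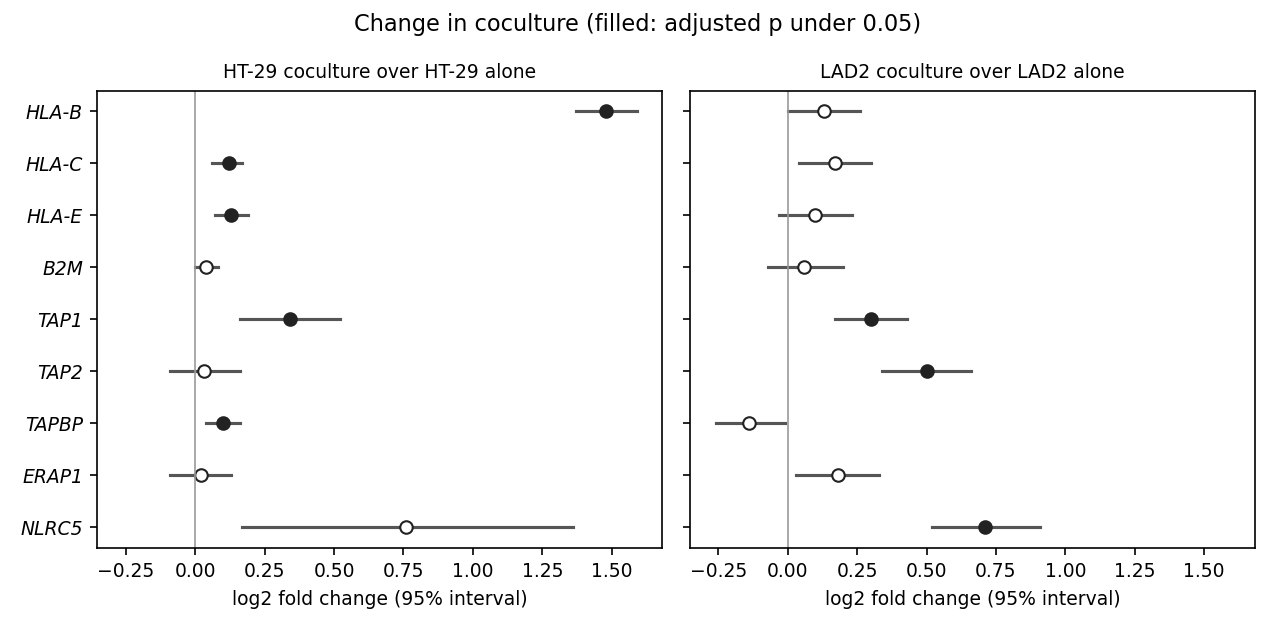
Fitted log2 fold change of each gene with its 95% interval, HT-29 coculture over HT-29 alone on the left and LAD2 coculture over LAD2 alone on the right; filled points have an adjusted p under 0.05. HLA-B stands at 1.48 in HT-29, and NLRC5, TAP2 and TAP1 at 0.71, 0.50 and 0.30 are the filled points in LAD2.

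The responses of the lines were compared directly, as the LAD2 log2 fold change minus the HT-29 log2 fold change in 1 fit over all 10 distinct libraries. Its spread was pooled over both lines, with a biological coefficient of variation of 2.76%, beside 4.03% in the fit of LAD2. The p-values of the differences may therefore be too small. Every setting of this comparison used the same single LAD2 coculture library, so none shows whether another library would give the same differences. The response of TAP2 was greater in LAD2, with a difference of 0.64 (SE 0.096, adjusted p = 1.66e-07, edgeR quasi-likelihood test), and it was called in all 16 other settings, with differences between 0.33 and 0.69 and adjusted p up to 0.0147. For HLA-B the difference was -1.17 (adjusted p = 4.18e-19), and 0.06 (adjusted p = 0.79) once the share of the other line was subtracted from the coculture libraries. The adjusted p of HLA-B ran from 1.19e-64 to 0.79 over the 16 other settings. In all, 4 of the 9 genes were called higher and 1 lower, beside 33.7% and 7.11% of the 17435 genes tested. The median difference of all genes tested was itself 0.17 under TMM scaling, 0.03 with RLE size factors and -0.02 with upper-quartile factors. Relative to that shift the called differences of HLA-C (0.23, adjusted p = 0.00213) and B2M (0.19, adjusted p = 0.00655) were close to the median of all genes, and that of ERAP1 was 0.34 (adjusted p = 0.000739). None of these 3 calls was made with RLE size factors, upper-quartile factors or library size alone, or with DESeq2, nor with no filter on low counts, without HT-29 alone replicate 1, without HT-29 alone replicate 3 or without HT-29 coculture replicate 3. With the first 4 of these settings TAPBP was called lower, by -0.20, -0.25, -0.24 and -0.20. The differences were 0.14 for HLA-E (adjusted p = 0.0633), 0.14 for TAP1 (adjusted p = 0.287), -0.06 for TAPBP (adjusted p = 0.447 under TMM) and 0.12 for NLRC5 (95% interval -0.53 to 0.77, adjusted p = 0.816), and those of HLA-E, TAP1 and NLRC5 changed sign with other scalings.

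Another 38 genes of the class I pathway, listed by role, were read from the same fits, and 37 of them were tested in each comparison, all but the ubiquitin ligase gene MARCHF4. In HT-29 coculture 2 were higher, beside 5.83% of all genes, and none was lower, beside 2.94% (4 and 4 at an unadjusted p under 0.05, and 1 and 0 by DESeq2), with a median log2 fold change of -0.01, beside 0.00 over all genes tested. MR1, a class I-like chain that presents microbial vitamin B metabolites, averaged 2.40 ± 0.278 CPM in HT-29 coculture and 0.552 ± 0.174 CPM in HT-29 alone (SD, n = 3 each; log2 fold change 2.20, adjusted p = 2.57e-09, edgeR). It stood at 171 CPM in LAD2 alone and at 0.984 times the mixture. PSMB8, a catalytic subunit of the immunoproteasome, averaged 5.62 ± 0.498 CPM in HT-29 coculture and 4.25 ± 0.854 CPM in HT-29 alone (log2 fold change 0.44, adjusted p = 0.017, edgeR), with 62.0 CPM in LAD2 alone and a level of 1.15 times the mixture. None of the 6 loading and quality control genes, the 13 transcription genes and the 4 tested genes of removal from the surface was called in HT-29. After subtraction of the LAD2 alone profile none of the 36 genes then tested was called by edgeR, with 1 higher and 3 lower at an unadjusted p under 0.05. The unadjusted and DESeq2 counts of the pathway genes have no share of all genes in each direction beside them.

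In LAD2 coculture 10 of the 37 genes were higher, beside 14.1% of all genes tested, and 3 lower, beside 6.75%, with a median log2 fold change of 0.07 beside 0.00 over all genes tested. Of the 10 genes of peptide supply, 5 were higher and none was lower. Among these, PSME2, a subunit of the proteasome activator PA28, had 97.5 CPM in LAD2 coculture, against a mean of 69.6 ± 2.19 CPM in LAD2 alone (log2 fold change 0.48, adjusted p = 3.8e-07). PSMB8 had 83.7 CPM in LAD2 coculture, against 62.0 ± 1.29 CPM in LAD2 alone (log2 fold change 0.42, adjusted p = 5.66e-06). The immunoproteasome subunit gene PSMB9 and the activator subunit gene PSME1, named after their values were seen, changed by 0.40 (adjusted p = 0.00131) and 0.26 (adjusted p = 0.00289). The trimming enzyme gene ERAP2 had 16.8 CPM in LAD2 coculture, against 12.1 ± 1.76 CPM in LAD2 alone (log2 fold change 0.47, adjusted p = 0.00318), and it stood at 116 CPM in HT-29 alone and at 0.959 times the mixture.

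The class I chain gene HLA-F had 82.0 CPM in LAD2 coculture, against 64.8 ± 3.51 CPM in LAD2 alone (log2 fold change 0.33, adjusted p = 0.000514, edgeR), at 1.33 times the mixture. HFE, a class I-like regulator of iron uptake, had 17 counts in LAD2 coculture and 0 counts in LAD2 alone, at least 14.3-fold higher against 3 counts over the LAD2 alone libraries, and it stood at 15.1 CPM in HT-29 alone and at 0.846 times the mixture. Of 6 loading and quality control genes, the disulphide isomerase gene PDIA3 (log2 fold change 0.28, adjusted p = 0.00106) and BCAP31, which encodes an endoplasmic reticulum protein that escorts class I chains out (0.35, adjusted p = 4.88e-05), were higher, and TAPBPL, which encodes a peptide editor (-0.24, adjusted p = 0.0365), was lower. PDIA3 and BCAP31 were both higher in HT-29 alone than in LAD2 alone, at 1.08 and 1.11 times the mixture. RFXAP, a subunit of the RFX complex that binds class I promoters, and the ubiquitin ligase gene MARCHF9 were lower, by log2 fold changes of -0.36 (adjusted p = 0.0347) and -0.23 (adjusted p = 0.0407). After subtraction of the HT-29 share, 9 of 36 genes were called higher, beside 5.92% of all genes, and none lower, beside 4.47% (13 and 2 at an unadjusted p under 0.05). HLA-F, PSMB8, PSMB9, PSME1, PSME2, LNPEP, CREB1 and IRF1 were among the 9, while PDIA3, BCAP31 and ERAP2 were no longer called, and HFE was not tested. The counts at an unadjusted p have no share of all genes beside them.

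**Figure D4:**
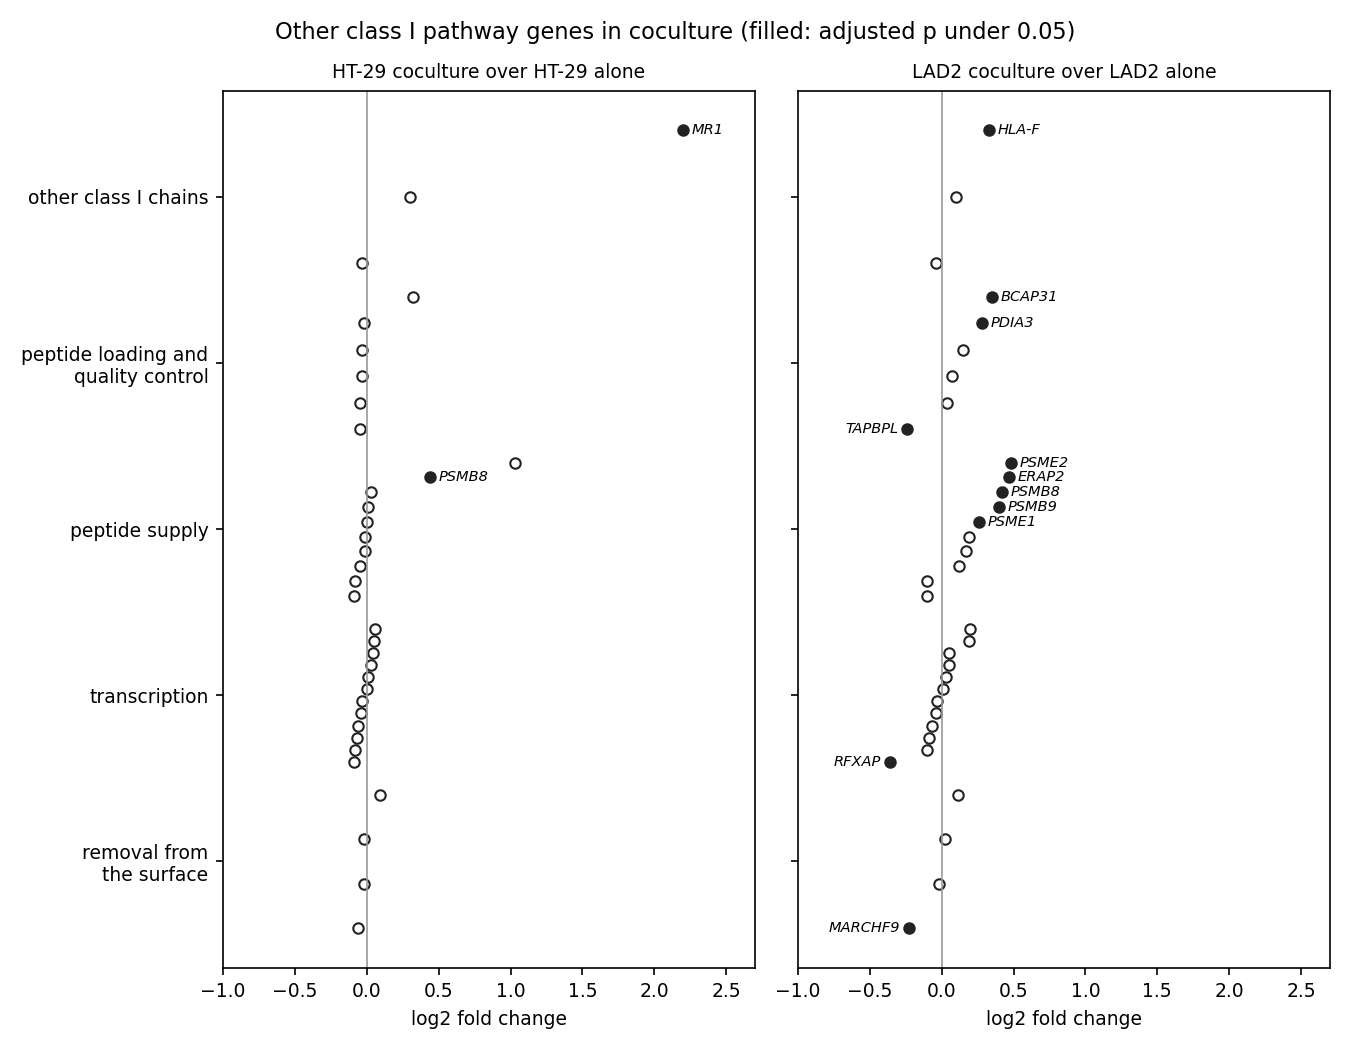
Fitted log2 fold change of the other class I pathway genes, grouped by role, HT-29 coculture over HT-29 alone on the left and LAD2 coculture over LAD2 alone on the right; filled and named points have an adjusted p under 0.05, and HFE, with 0 counts in LAD2 alone, and 1 further gene are not drawn. Apart from MR1 at 2.20 and PSMB8 at 0.44, the HT-29 points are open, and in LAD2 5 filled points of peptide supply lie between 0.26 and 0.48.

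In the lines alone, 15 of the 37 tested pathway genes were higher in HT-29 alone than in LAD2 alone, beside 44.9% of all genes, and 21 lower, beside 47.5%, with a median log2 difference of -0.30 beside -0.07 over all genes. The immunoproteasome subunits PSMB8 and PSMB9 were lower in HT-29, by log2 differences of -3.89 and -6.09 (adjusted p = 4.48e-37 and 2.68e-31, edgeR). In loading and quality control 5 of 6 genes were higher in HT-29, for example BCAP31 by 2.02 and PDIA3 by 1.82, and TAPBPL was lower (-4.79). All 4 tested genes of removal from the surface and 9 of 13 transcription genes were lower in HT-29. In the comparison of the responses 22 of the 37 genes were called higher, beside 33.7% of all genes, and 1, MR1 (-1.93, adjusted p = 5.87e-10), lower, beside 7.11%, with a median of 0.22 beside 0.17 over all genes. PSME2 differed most among the genes of peptide supply (0.70, adjusted p = 1.23e-12). The count of 22 was 10 under RLE, upper-quartile and library size scaling. The 33.7% holds for TMM scaling only. The shares of all genes called higher under the other scalings are not given here, so the count of 10 is not set against them.

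Genes with the most similar pattern were sought among 10757 genes by the distance over 3 log2 values, the HT-29 response, the LAD2 response and the difference between the lines alone, in the fit over the 10 libraries. The HT-29 response was not corrected for LAD2 RNA, which gives a higher level for genes higher in LAD2 alone, so these values are not independent. For NLRC5 it rested on 71 counts in HT-29 coculture and 41 in HT-29 alone. In the fit of HT-29 it was 0.47 and 0.25 after subtraction of the LAD2 alone and LAD2 coculture profiles. Nearest to NLRC5 (0.76, 0.89 and -4.90 in the fit over the 10 libraries) were VSIR at a distance of 0.28, BCL2 at 0.32, HERC5 at 0.33, MELTF at 0.35 and ICAM1 at 0.54. Among the 5 nearest to B2M (0.04, 0.23 and -2.19) were UTRN at 0.02, CD99L2 at 0.03, TCEAL4 at 0.05 and LEPROTL1 at 0.07.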

How the data were processed

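RNA sequencing libraries of HT-29 and LAD2 cells, alone or in coculture, were analysed from the raw counts per gene deposited by the authors without normalization. Named in the submitters' processing notes, without roles, are the build hg38 and the tools STAR 2.7.10a, FastQC 0.11.9 and DESeq2 3.24.0. The sources used here give neither the counting program nor its annotation or use of strand. Identifiers were matched to GENCODE release 29, 58721 of 58721, which gave coordinates and transcript lengths. Promoter windows came from RefSeq on GRCh38.p14.

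After filterByExpr and TMM scaling, counts were tested by the quasi-likelihood F test of edgeR 4.0.16 (R 4.3.3), two-sided. P-values were adjusted by Benjamini-Hochberg over all genes tested, and a gene was called at an adjusted p under 0.05. The SE is the absolute log2 fold change divided by the square root of F. Each coculture comparison used the libraries of its line, the comparison of the lines alone used those 6 libraries, and the difference of the responses used all 10. In the fit of LAD2 the single coculture library was given the spread of LAD2 alone, and in the fit over all 10 libraries a spread pooled over both lines. The biological coefficient of variation was 2.76% in the fit over all 10 libraries, 1.7% in the fit of HT-29 and 4.03% in the fit of LAD2.

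The share of the other line's RNA was read from genes with a mean of 50 CPM or more in that line and 0.5 CPM or less in the line under study. For each gene the excess over the line alone was set against the level in that line, and the median ratio was kept. The mixture is the line alone times 1 minus the share plus the other line alone times the share. Other settings were RLE, upper-quartile and no factors, DESeq2 1.42.0, no filter on low counts, 1 library left out, replicate number as a block, a fit on all libraries, and subtraction of the share. All 9 genes are named, and of the 38 other pathway genes at most the 3 with the largest change per role and comparison among those called, except for genes not reported here. Replicate numbers were not taken to pair HT-29 libraries, since deviations of same-numbered libraries correlated at only 0.0622, 0.047 and 0.0749. The genes, the pathway list, the motifs and the tests were chosen with earlier results of these data known. Counts have no molecular identifiers, so floors cover counting error only.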

Additional observations from a re-analysis of the deposited data

Results flagged for a closer look

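For 5 genes the response of LAD2 and the response of HT-29 to coculture differed in the test of the difference itself (LAD2 minus HT-29, edgeR quasi-likelihood test, Benjamini-Hochberg adjustment over all genes). The difference was 0.64 for TAP2 (adjusted p = 1.66e-07), 0.34 for ERAP1 (adjusted p = 0.000739), 0.23 for HLA-C (adjusted p = 0.00213) and 0.19 for B2M (adjusted p = 0.00655), against a median of 0.17 over all genes tested, of which 40.8% were called. The calls of ERAP1, HLA-C and B2M were lost with RLE, upper-quartile and no factors, with DESeq2, with no filter on low counts, and without HT-29 alone replicate 1, HT-29 alone replicate 3 or HT-29 coculture replicate 3, which is 8 of 16 other settings, and in 4 of these 8 the differences of HLA-C and B2M turned negative. It was -1.17 for HLA-B (adjusted p = 4.18e-19), and 0.06 after the share of the other line's RNA was subtracted. The spread of the test was pooled over both lines, so its p-values may be too small. The groups held 3 libraries or fewer, too few to look for single libraries that stand apart.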

How the results depend on the processing

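All 9 genes were lower in HT-29 alone than in LAD2 alone in all 12 other settings, and TAP1, TAP2 and NLRC5 were higher in LAD2 coculture in all 10. Those 10 settings share the single LAD2 coculture library and cannot show whether another library would give the same levels. In HT-29 coculture the count of called genes among the 9 was 5, and it was 3 with DESeq2, 3 with a fit on all distinct libraries, 0 after subtraction with either LAD2 profile, and 3 to 5 with 1 library left out (3 without HT-29 coculture replicate 1). Over all genes the count was 1233, and it was 733 with DESeq2, 432 and 424 after subtraction with the LAD2 alone and LAD2 coculture profiles, and 925 to 1270 with 1 library left out. Among the pathway genes it was 2, and 1 with DESeq2, 0 after either subtraction and 1 to 3 with 1 library left out. With no scaling factors 78.6% of all called genes were higher, beside 66.5%.

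In LAD2 coculture the count among the 9 genes was 3, and it was 8 with a fit on all distinct libraries, 6 after subtraction, and 3 to 8 with 1 library left out (8 without LAD2 alone replicate 3). Over all genes it was 3298, and 1954 with DESeq2, 7444 with the fit on all distinct libraries, 1583 after subtraction, and 2499 to 4447 with 1 library left out. Among the pathway genes it was 13, and 26 with the fit on all distinct libraries, and 10 to 17 with 1 library left out. In that fit all 26 were higher and TAPBP was at 0.04 in place of -0.14. The HT-29 share in LAD2 coculture was 5.1% with genes over 100 CPM and under 0.2 CPM, beside 5.26%.

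For the difference of the responses the count among the 9 genes was 5, and it was 3 with RLE, upper-quartile or no factors, with DESeq2 and with no filter, and 3 to 6 with 1 library left out (3 without HT-29 alone replicate 1, without HT-29 alone replicate 3 and without HT-29 coculture replicate 3). Over all genes it was 7117, and 4278 with DESeq2, 3853 with no filter, 2608 after subtraction, and 4754 to 7786 with 1 library left out. Among the pathway genes it was 23, and 12, 15 and 13 with RLE, upper-quartile and no factors, 11 with DESeq2, 9 with no filter, 14 after subtraction, and 12 to 25 with 1 library left out. The part of called genes that were higher was 82.6%, and 65.5%, 56.3% and 59.2% with RLE, upper-quartile and no factors.

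Signs turned as follows. After subtraction of the LAD2 alone profile HLA-C, HLA-E and B2M were at -0.01, -0.04 and -0.01 in HT-29, and with the LAD2 coculture profile HLA-C, HLA-E, B2M and ERAP1 were at -0.03, -0.06, -0.01 and -0.01. In the difference HLA-E and NLRC5 were at -0.00 and -0.01 with RLE, HLA-E, TAP1 and NLRC5 at -0.05, -0.05 and -0.07 with upper-quartile, -0.04, -0.04 and -0.05 with no factors and -0.00, -0.00 and -0.02 with DESeq2. With no filter HLA-C, HLA-E, B2M, TAP1 and NLRC5 were at -0.04, -0.13, -0.08, -0.13 and -0.14, and after subtraction HLA-B was at 0.06. With 1 library left out, TAP2 ranged from -0.02 to 0.08 and ERAP1 from -0.01 to 0.05 in HT-29, and in the difference HLA-C ranged from -0.07 to 0.27, HLA-E from -0.13 to 0.17, B2M from -0.10 to 0.24, TAP1 from -0.14 to 0.17 and NLRC5 from -0.39 to 0.36. The cause was not tested.

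With the replicate block 5 of the 9 genes were called in HT-29 coculture, with 1398 genes in all (876 higher and 522 lower) and 4 pathway genes, and all 9 in the lines alone. With a replicate block of the HT-29 libraries in the difference, chosen after the data were seen, 5 of the 9 genes were called, 6858 genes in all and 22 pathway genes. Each HT-29 coculture library correlated best with the HT-29 alone library of its number, a hint from the data and not the design. No paired analysis was possible for LAD2 coculture because it is 1 distinct library. Among the 9 genes, NLRC5 in HT-29 alone rests on 41 counts.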
